A study of Canis lupus familiaris with 7 samples.

Results

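Collagens are the main structural proteins of bone and soft tissue. Each molecule is built from 3 chains that wind around each other, and the winding needs a glycine at regular steps along each chain. Fibrillar collagens form the ropes of the matrix, and type I, made of COL1A1 and COL1A2 chains, is the mineralised fibre that osteoblasts lay down and by which osteosarcoma, a bone tumour, is recognised. Basement membrane collagens form the sheets under blood vessels and epithelia, and the other chains form beaded filaments, anchors, fibril-associated linkers or membrane-bound collagens.

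The members described here are all array probes under a collagen chain name of the pattern COL, number, A, number, except the 4 cartilage chains COL2A1, COL9A1, COL9A2 and COL11A2. They are 25 of the 13064 genes with a symbol on the array, and 59 of its 43603 probes. Fibrillar chains have 20 probes for 6 genes, basement membrane chains 12 probes for 6 genes and other chains 27 probes for 13 genes. The rule is by name only, so COL10A1, a chain of hypertrophic cartilage, is a member. One gene that the files call COL29A1 is described there as the fifth alpha chain of type VI and is called COL6A5 here. Probes that the files list only under a transcript or locus identifier are no members. Of these, COL11A1, COL15A1 and a probe each of COL4A1 and COL5A1 are given apart.

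RNA of 7 primary canine osteosarcomas was hybridised in 1 colour, 1 array for each tumour. The tumours were compared by the DLG2 genotype that the labels give. The 4 DLG2 deleted tumours came from a German Shepherd and Collie mix of 8 years, a Rottweiler mix of 9 years, a Greyhound of 6 years and a Great Pyrenees of 7 years. The 3 DLG2 wild type tumours came from a Boxer of 12 years, a Labrador Retriever mix of 10 years and a Bull Mastiff of 8 years. The sex label was MC for deleted tumours 1 and 3 and wild-type tumour 3, and FS for the others. The labels name no treatment, and each tumour stands for 1 dog of another breed. The RNA is that of tumour tissue, in which fewer cells of a type and less RNA per cell cannot be told apart.

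DLG2 codes for a membrane scaffold protein. Its probe lay at 10.33 to 11.42 on the log2 scale in deleted and 10.88 to 12.02 in wild-type tumours. It was lower by a log2 difference of -0.79 in the deleted group (SE 0.36, limma adjusted p = 0.707), and the groups overlapped. The arrays had 30280 to 34538 probes well above background, and their number limits the precision. Wild-type tumours 1 and 2 were more alike over the 32309 tested probes (r = 0.987) than the other 20 pairs (0.935 to 0.965), though their labels give separate dogs. Wild-type tumour 2 shared a slide with deleted tumours 2 and 3. The scans were read out in feature extraction sessions, of which the first (session 1) took deleted tumours 2 to 4 with wild-type tumour 2, and session 2 the remaining 3 tumours. The tumours carried bone markers. ALPL, the alkaline phosphatase of osteoblasts, lay between 12.53 and 16.55, and BGLAP, or osteocalcin, between 9.67 and 14.19, both well above background in all 7 tumours. Levels of a marker list are given below as the median deviation of its genes from their means over the tumours. The lists for tissues not taken up again lay between -0.15 and 0.20 (skeletal muscle, 6 of 7 genes tested) and between -1.12 and 1.27 (epithelial, 1 of 6). In each of them limma called 0 genes, where it called 0% of all probes.

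The probes of the triple-helical parts show the collagen repeat in their own letters. A glycine codon, GG followed by any base, recurs every 9 bases in the wound part of a chain. This spacing ran through the whole 60-base probe in 10 of the 59 collagen probes (16.9%) and in 15 of all 43603 probes (0.0344%). Of those printed below, the COL1A1 and COL1A2 probes carry the spread of type I collagen described next, the COL4A2 probe belongs to the vessel-wall chain, and the COL13A1 and COL25A1 probes are the only ones of their genes. Sequences are as the files give them, 5′ to 3′, with canFam2 coordinates, and capitals mark the glycine triplets.

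COL1A1, chr9:29513653-29513712, minus strand: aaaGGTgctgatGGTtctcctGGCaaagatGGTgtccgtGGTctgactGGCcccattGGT
COL1A2, chr14:22862056-22862261, plus strand: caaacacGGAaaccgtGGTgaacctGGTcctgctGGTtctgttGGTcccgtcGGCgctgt
COL4A2, chr22:61739054-61739113, plus strand: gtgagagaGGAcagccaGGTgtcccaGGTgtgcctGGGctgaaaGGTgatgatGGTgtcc
COL13A1, chr4:24185159-24186223, plus strand: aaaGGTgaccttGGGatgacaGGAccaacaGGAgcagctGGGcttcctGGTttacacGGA
COL25A1, chr32:32074533-32075587, minus strand: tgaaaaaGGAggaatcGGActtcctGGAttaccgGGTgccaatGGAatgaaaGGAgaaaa

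The coordinates of the COL1A2, COL13A1 and COL25A1 probes span 206, 1065 and 1055 bases for 60 bases of probe, so each of them crosses an exon junction. Despite the shared repeat the probes are distinct. Over 1646 pairs of probes from different member genes, the longest run of identical bases was 11, and 0 pairs shared 20 or more.

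Most of the collagen probes could be measured. A probe was tested when it was well above background in at least 3 tumours, which held for 51 of the 59 probes and 22 of the 25 genes, and 44 probes were well above background in all 7. COL4A3, COL4A5 and COL10A1 had no tested probe. Each gene is given by its tested probe of highest mean, and all values below are log2 intensities, which can be compared between tumours but not between probes.

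Between the genotypes no collagen probe was called. limma called 0 of 51 probes at an unadjusted p below 0.05 with an adjusted p below 0.1, where it called 0% of all 32309 probes. At an unadjusted p below 0.05 alone there were 2 collagen probes, against 7.34% of all probes, both of them lower in deleted tumours, where 4.19% of all probes lay, and the groups were separate at 0 collagen probes, against 8.15% of all probes. The methods' t-test also called 0. The smallest adjusted p of a collagen probe was 0.618. Of the 22 genes, 10 were nominally higher and 12 lower in deleted tumours, and the median difference of the 51 probes was -0.03 beside 0.0045 for all probes. The 12 include COL4A4, which passed the filter through the wild-type tumours alone. The SE of a gene's difference ran from 0.089 to 1.03, so changes of well over 2-fold in the most variable chains were not detectable with these tumours.

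**Figure D1:**
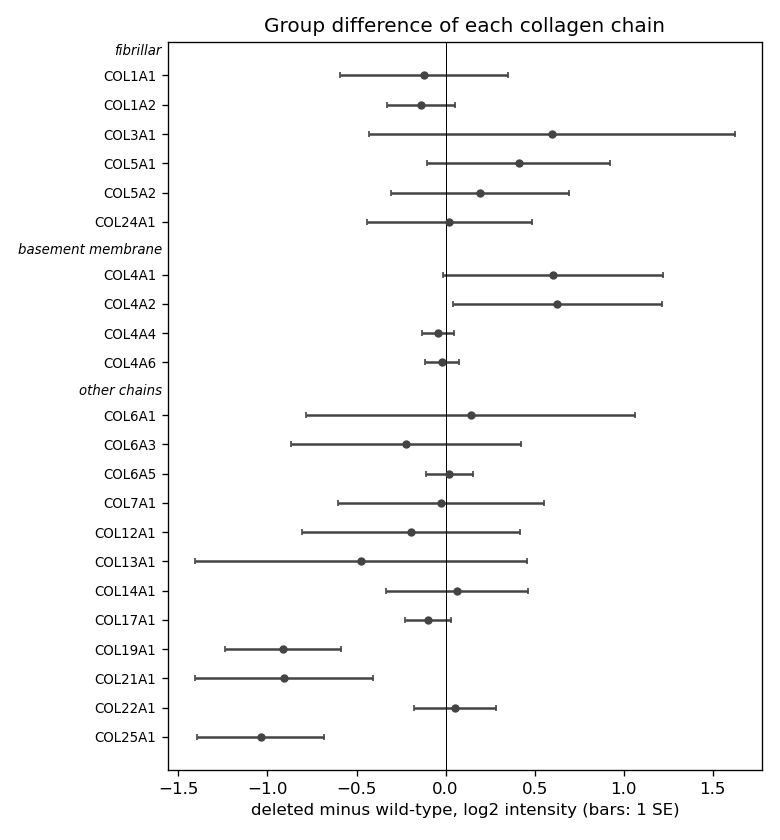
Difference of deleted minus wild-type tumours in log2 intensity (x axis) for the 22 tested collagen chains (y axis, 1 probe each, grouped by class). Points are the limma estimate and bars are 1 SE, and the points lie on both sides of 0, from -1.04 for COL25A1 to 0.63 for COL4A2. COL4A4 is drawn although it passed the filter through the wild-type tumours alone.

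What stood out was the spread between tumours. The highest and the lowest of the 7 tumours differed by a median of 2.34 over the 51 collagen probes and 0.82 over all tested probes. A range above 2, which is 4-fold, was found in 37 of the 51 (72.5%) and in 8.29% of all probes. Among probes well above background in all tumours these shares were 84.1% of 44 and 8.97% of 27437. Fibrillar chains exceeded this range in 17 of 20 probes, basement membrane chains in 5 of 8 and other chains in 15 of 23. Probes of 1 gene share their source, so these shares describe the probes and are no count of independent events. The collagen probes and all probes were not matched for intensity. The offset of 50 in the background correction narrows the range of dim probes, and its part in these shares was not tested.

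**Figure D2:**
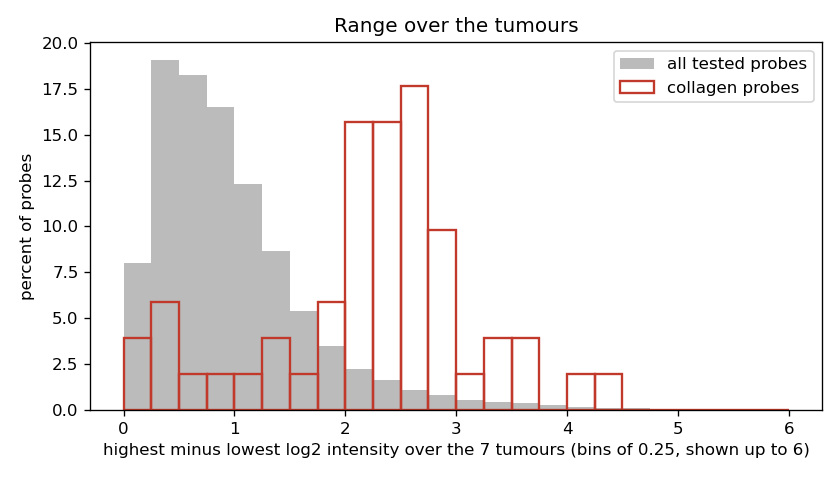
Histogram of the highest minus the lowest log2 intensity over the 7 tumours (x axis) as percent of probes (y axis), for all 32309 tested probes (filled) and the 51 collagen probes (outlined). Most collagen probes lie above 2, where 8.29% of all probes lie.

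The extremes fell on some tumours more often than on others. Deleted tumour 3 was the highest of the 7 for 9 of the 22 genes, and deleted tumours 2 and 4 were the lowest for 6 each. These counts were not made over all genes, so they are no trait of the collagen chains. They include dim chains of narrow range, such as COL4A4 and COL4A6, which spanned 0.12 and 0.20. They also count chains that vary together as separate genes. The widest range of a single gene was that of COL3A1, 20.9-fold, followed by COL13A1 with 18.6-fold and COL6A1 with 10.9-fold.

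**Figure D3:**
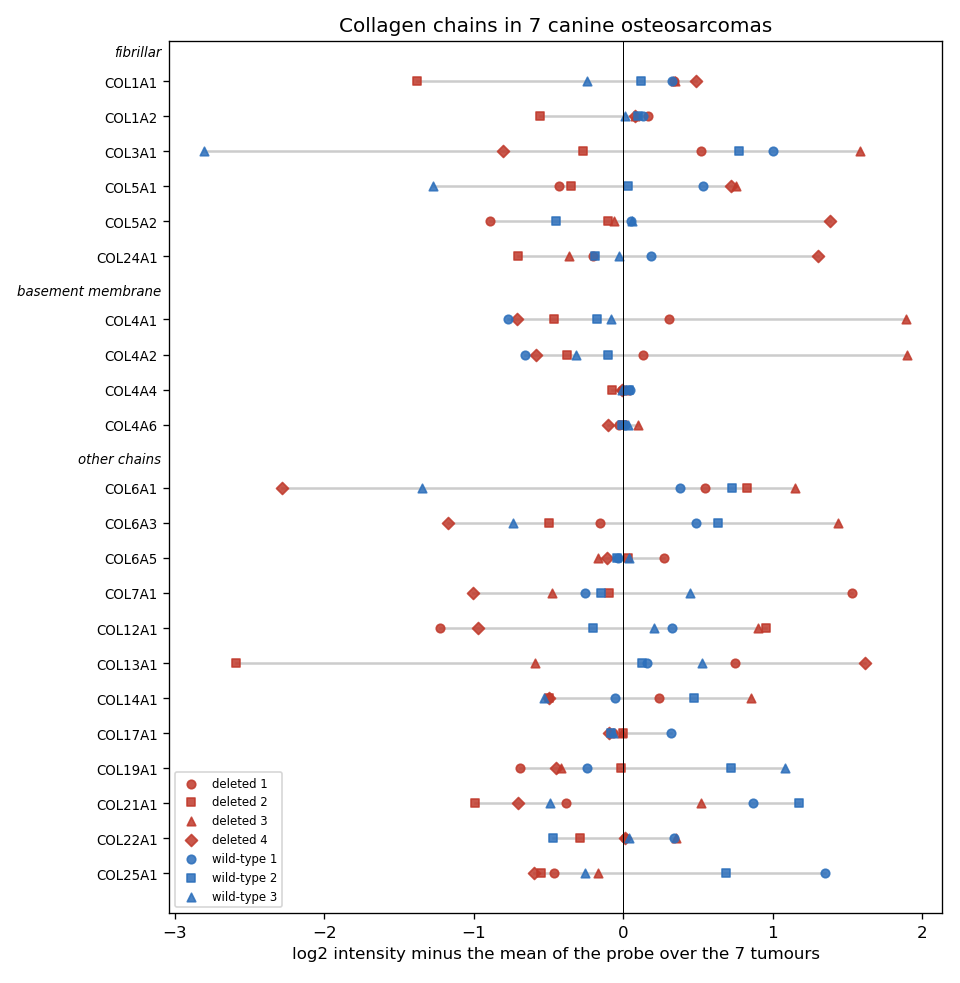
Log2 intensity of each tested collagen chain in each tumour, minus the mean of its probe over the 7 tumours (x axis), with 1 row for each gene (y axis). Red symbols are the 4 deleted and blue symbols the 3 wild-type tumours, grey lines join the lowest and highest tumour, and red and blue symbols mix along the lines.

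Type I collagen is the defining fibre of bone. COL1A1, its first chain, was at 15.80, 14.08, 15.80 and 15.95 in deleted tumours 1 to 4 and at 15.79, 15.58 and 15.22 in wild-type tumours 1 to 3. Deleted tumour 2 was clearly the lowest, and the other 3 deleted tumours lay at or just above the top of the wild-type range. The group difference was -0.12 (SE 0.47, limma adjusted p = 0.978). COL1A2, the second chain, was at 17.72, 16.99, 17.63 and 17.63 in deleted and at 17.68, 17.65 and 17.56 in wild-type tumours. Again deleted tumour 2 was lowest and the groups overlapped, with a difference of -0.14 (SE 0.19, limma adjusted p = 0.928).

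The other type I probes showed a much wider spread than these brightest ones. The 3 other COL1A1 probes spanned up to 3.57, against 1.87 for the brightest. The triple-helix probe printed above read 11.54, 9.75, 13.01 and 12.91 in deleted tumours and 13.04, 11.77 and 10.37 in wild-type tumours. Deleted tumour 2 and wild-type tumour 3 were thus the low tumours, 1 of each genotype. For COL1A2 the 2 probes of highest intensity spanned 0.49 and 0.72, while the other 4 spanned up to 3.07. The triple-helix probe printed above was at 14.38, 12.80, 15.47 and 15.47 in deleted and at 15.49, 14.78 and 14.41 in wild-type tumours. No spot was marked as saturated, and the part of the high intensity in the narrow span was not tested. The COL1A1 probes disagreed in direction between the genotypes, from -0.12 to 0.17, and all 6 COL1A2 probes were nominally lower in deleted tumours, from -0.46 to -0.13.

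**Figure D4:**
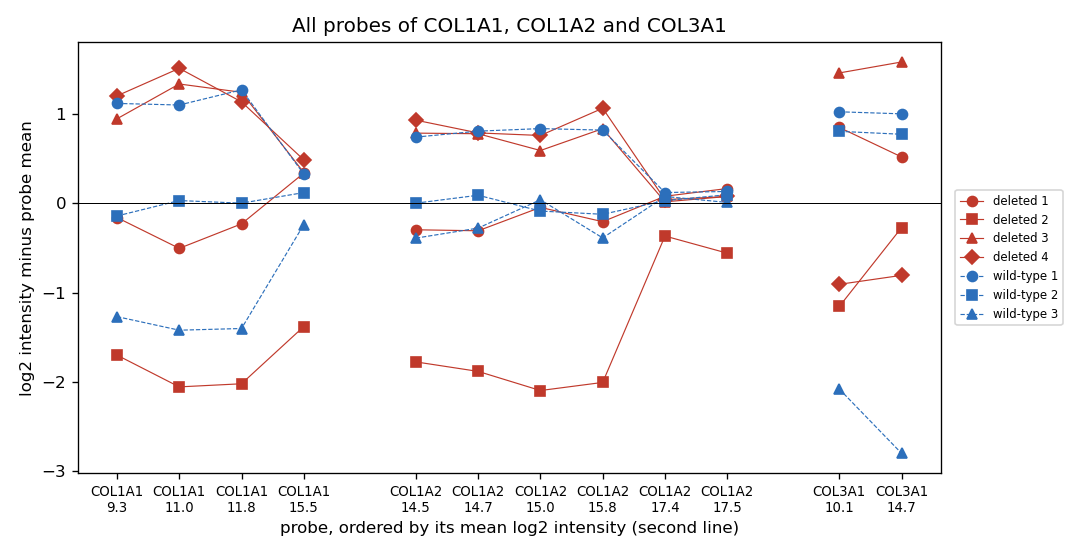
Log2 intensity minus the probe's mean (y axis) for every probe of COL1A1, COL1A2 and COL3A1, ordered by mean intensity within the gene (x axis), with a line for each tumour. Deleted tumour 2 is lowest on all COL1A1 and COL1A2 probes, and the lines close up on the 2 brightest COL1A2 probes, which span 0.49 and 0.72.

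Beside deleted tumour 2, the tissue markers also moved. The cartilage list (8 of 8 genes tested) had its highest level there, 2.51, against -1.06 to 0.83 in the other deleted and -0.80 to 0.13 in the wild-type tumours, and the osteoblast list (4 of 8 tested) its lowest, -1.47. COL2A1, the main cartilage collagen, reached 13.08 in deleted tumour 2 and 15.13 in deleted tumour 3, with 6.42 to 10.11 in the remaining 5. The part of these in the type I values was not tested.

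COL3A1, the fibrillar collagen of vessels and loose connective tissue, varied most. It was at 15.23, 14.44, 16.30 and 13.90 in deleted tumours and at 15.71, 15.49 and 11.91 in wild-type tumours. Wild-type tumour 3 was lowest by about 2 on the log2 scale and deleted tumour 3 highest, and the second probe placed the same tumours at its ends, at 8.05 and 11.59. The difference of 0.60 (SE 1.03, limma adjusted p = 0.944) changed sign, to -0.63, without wild-type tumour 3. Within feature extraction session 1 it was -0.61, and within session 2 it was 1.42. Markers moved with wild-type tumour 3 as well. The osteoclast list (4 of 6 genes tested) was at 2.35 there and between -1.26 and 0.56 elsewhere, and the osteoblast list at 1.46 against -1.47 to 0.68. The fibroblast list (6 of 6) was lowest there, at -0.43 against -0.17 to 0.78, but its genes were split. MFAP5, LUM and DCN were lowest in wild-type tumour 3, at 5.91, 12.35 and 13.50. DPT, PI16 and CD34 were not, at 12.86, 6.74 and 8.73 there against 10.89 to 14.34, 6.36 to 6.80 and 7.96 to 9.42 elsewhere. The part of these lists in the COL3A1 values and in the COL5A1 and type VI values given below was not tested.

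Type V collagen is a minor partner that sets the width of type I fibrils. COL5A1 was at 11.45, 11.53, 12.63 and 12.60 in deleted and at 12.41, 11.91 and 10.60 in wild-type tumours. Wild-type tumour 3 was again lowest on this probe, and deleted tumour 2 was lowest on the other 2 COL5A1 member probes. A COL5A1 probe listed by a transcript identifier was lowest in wild-type tumour 3, at 8.54, and differed by 0.10 between the genotypes. On the brightest member probe the group difference was 0.41 (SE 0.51, limma adjusted p = 0.917). COL5A2 was at 13.88, 14.66, 14.70 and 16.15 in deleted and at 14.82, 14.32 and 14.82 in wild-type tumours. Deleted tumour 4 stood above the rest, on this and the other 3 COL5A2 probes, with a group difference of 0.19 (SE 0.50, limma adjusted p = 0.966). The probes of each gene disagreed in direction, from -0.06 to 0.41 for COL5A1 and from -0.32 to 0.19 for COL5A2. Without wild-type tumour 3 the COL5A1 difference was -0.11, and without deleted tumour 4 that of COL5A2 was -0.24.

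COL24A1, a minor fibrillar chain, was chosen for its values. Deleted tumour 4 had 8.14, and the other 6 tumours had 6.13 to 7.02. The level of the adipocyte list (5 of 5 genes tested) was also highest in deleted tumour 4, 3.48 against -0.69 to -0.31 in the others, and ADIPOQ, the fat-cell hormone adiponectin, was at 13.36 there and at most 7.53 elsewhere. PLIN1, CIDEC and LPL of the list were also highest in deleted tumour 4, while LEP was lowest there, at 7.65 against 7.70 to 8.00 elsewhere. The part of the adipocyte markers in the COL5A2 and COL24A1 values was not tested. Over the 6 fibrillar genes the median difference was 0.11, with 4 higher and 2 lower, beside 0.015 for all genes, and it lay between -0.23 and 0.30 over the other settings.

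COL11A1, a fibrillar chain of cartilage and of growing bone, is listed by a transcript identifier. It was at 9.07, 12.56, 11.57 and 8.35 in deleted and at 10.56, 9.77 and 8.31 in wild-type tumours, highest in the tumours with the most COL2A1. Between the genotypes it differed by 0.84 (SE 1.12, limma adjusted p = 0.925), by 0.12 without deleted tumour 2 and by 0.23 without wild-type tumour 3. The brighter COL10A1 probe was well above background in 2 of the 4 deleted tumours and in 0 of the wild-type tumours. It was at 5.95, 5.97, 8.92 and 6.41 in deleted and at 5.94 to 6.01 in wild-type tumours. The means were 6.81 and 5.97, and the deleted mean rested on deleted tumour 3. The other probe was well above background in 1 deleted tumour, with 6.68 in deleted tumour 3 and 5.76 to 5.99 in the rest. COL10A1 failed the filter and was not tested.

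Of the basement membrane members, only COL4A1 and COL4A2 had probes well above background in all 7 tumours. COL4A1 and COL4A2 code for the chains of the ubiquitous type IV trimer and lie head to head on chromosome 22. COL4A1 was at 12.95, 12.18, 14.54 and 11.93 in deleted and at 11.87, 12.47 and 12.56 in wild-type tumours. COL4A2 was at 12.13, 11.62, 13.90 and 11.42 in deleted and at 11.34, 11.90 and 11.68 in wild-type tumours. Deleted tumour 3 exceeded every other tumour by more than 1 on the log2 scale in both, while the other 3 deleted tumours overlapped the wild-type tumours. Deleted minus wild-type came to 0.60 (SE 0.62, limma adjusted p = 0.901) for COL4A1 and 0.63 (SE 0.59, limma adjusted p = 0.897) for COL4A2. Both fell towards 0 without deleted tumour 3, to 0.055 and 0.083, and both changed sign with age as a covariate, to -0.25 and -0.09. All 6 tested member probes of the pair were nominally higher in deleted tumours, from 0.42 to 0.91. A COL4A1 probe listed by a transcript identifier differed by 1.13 (SE 0.56, limma adjusted p = 0.740). It lay at 10.99 to 13.21 in deleted and 10.05 to 10.80 in wild-type tumours, so the groups were separate, as at 8.15% of all probes.

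Vessel and other markers moved with these chains. The endothelial list (6 of 8 genes tested) was at 1.36 in deleted tumour 3, against -0.23 to 0.13 in the other deleted and -0.68 to -0.03 in the wild-type tumours. The mural list (6 of 8), which marks the muscle cells of vessel walls, was at 0.76 there and between -0.28 and 0.11 elsewhere. The fibroblast list was at 0.78 in deleted tumour 3 and between -0.43 and 0.17 elsewhere, and the leukocyte list (6 of 7) at 0.99 against -0.84 to 0.36. PECAM1 was at 12.99 and VWF at 13.05 in deleted tumour 3, the highest of the 7 for both. Their part in the COL4A1 and COL4A2 values was not tested.

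The restricted type IV chains were dim. COL4A4 was at 5.95 to 6.04 in deleted tumours, not well above background in any of them. In wild-type tumours it was at 6.01 to 6.07, and it passed the filter through them alone. Its difference of -0.04 is therefore given without a test. COL4A6 spanned 0.20 over the tumours. The 2 COL4A3 probes and the COL4A5 probe were well above background in at most 1 tumour. Over the 4 genes that passed the filter, COL4A4 included, the median difference was 0.29, with 2 higher and 2 lower. It lay between -0.07 and 0.61 over the other settings, and the 0.61 is that of chains well above background on all 7 arrays. The median of 0.29 describes no single gene. It falls between COL4A1 and COL4A2, at 0.60 and 0.63, and the dim COL4A4 and COL4A6, at -0.04 and -0.02. COL15A1, a basement membrane zone chain listed by a transcript identifier, was at 10.96, 11.19, 12.30 and 9.44 in deleted and at 10.23, 10.85 and 10.59 in wild-type tumours. It was highest in deleted tumour 3 as well, with a difference of 0.41 (SE 0.61, limma adjusted p = 0.933).

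Type VI collagen forms beaded filaments around cells. COL6A1 was at 13.83, 14.11, 14.44 and 11.00 in deleted and at 13.66, 14.01 and 11.93 in wild-type tumours. COL6A3 was at 8.34, 8.00, 9.93 and 7.32 in deleted and at 8.98, 9.13 and 7.75 in wild-type tumours. Deleted tumour 4 and wild-type tumour 3 were the low tumours for both, again 1 of each genotype. Between the genotypes the chains differed by 0.14 (SE 0.92, limma adjusted p = 0.988) for COL6A1 and -0.22 (SE 0.64, limma adjusted p = 0.970) for COL6A3. The 3 COL6A1 probes ran from 0.14 to 0.29 and the 5 COL6A3 probes from -0.56 to -0.22. COL6A5 spanned 0.44 over the tumours.

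Fibril-associated chains bind to the surface of fibrils. COL12A1 was at 12.84, 15.03, 14.97 and 13.10 in deleted and at 14.39, 13.87 and 14.28 in wild-type tumours. The deleted tumours formed the high and the low end, with the wild-type tumours between them, and the difference was -0.19 (SE 0.61, limma adjusted p = 0.973). COL14A1 was at 6.71, 5.97, 7.33 and 5.97 in deleted and at 6.42, 6.95 and 5.94 in wild-type tumours, with a difference of 0.06 (SE 0.40, limma adjusted p = 0.988). Its 2 probes disagreed in direction, at 0.06 and -0.03.

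COL19A1 and COL25A1 held the smallest p among the members, and both were lower in deleted tumours without being called. COL19A1, found around muscle and nerve, was at 9.38, 10.06, 9.66 and 9.62 in deleted and at 9.83, 10.80 and 11.15 in wild-type tumours. Deleted tumour 2 lay above wild-type tumour 1, so the groups overlapped at this pair. Between the genotypes it differed by -0.91 (SE 0.33, p = 0.0271, limma adjusted p = 0.631), and exact permutation of the genotypes over all 35 ways to split the tumours gave p = 0.114 two-sided, where 0.0571 is the smallest possible. Its difference was -1.02 within feature extraction session 1 and -1.11 within session 2, and -1.05 with wild-type tumours 1 and 2 averaged.

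COL25A1, a membrane-bound collagen of neurons, was at 6.27, 6.18, 6.57 and 6.13 in deleted and at 8.08, 7.42 and 6.47 in wild-type tumours. The signal was raised in wild-type tumours 1 and 2, the pair of closely alike arrays, while wild-type tumour 3 lay below deleted tumour 3. It was well above background in 6 of the 7 tumours. Between the genotypes it differed by -1.04 (SE 0.36, p = 0.0231, limma adjusted p = 0.618), and exact permutation gave p = 0.114 again. Averaging wild-type tumours 1 and 2 gave -0.83, leaving out wild-type tumour 1 gave -0.66, and age as a covariate -0.52. On the processed intensity the difference was -2.53 with 75th percentile scaling, so its size depends on the background correction. The difference was -1.13 within feature extraction session 1 and -1.01 within session 2. COL21A1, named for its values, showed the same 2 tumours at the top, 8.94 and 9.25, with deleted tumours at 7.09 to 8.60 and wild-type tumour 3 at 7.59, a difference of -0.91 (SE 0.50, limma adjusted p = 0.768). Without wild-type tumour 2 that was -0.58, and without wild-type tumour 3 it was -1.41.

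COL13A1, a membrane-bound chain, had the widest range after COL3A1. It was at 10.61, 7.26, 9.27 and 11.48 in deleted and at 10.02, 9.98 and 10.38 in wild-type tumours. The deleted tumours enclosed the wild-type tumours on both sides, with an SD of 1.83 (n = 4) against 0.22 (n = 3), and the difference was -0.47 (SE 0.93, limma adjusted p = 0.953). Its sign turned, to 0.32, without deleted tumour 2. COL7A1, the anchoring chain under epithelia, was at 9.78, 8.15, 7.78 and 7.25 in deleted and at 8.00, 8.10 and 8.70 in wild-type tumours. Deleted tumour 1 was highest on both tested probes, which disagreed in direction, at -0.03 and 0.27. Over the 12 tested genes of these classes the median difference was -0.15, with 4 higher and 8 lower. Within feature extraction session 1 it was -0.58, and without deleted tumour 4 it was 0.06.

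Chains that assemble together were next set against each other over the 7 tumours. Of 10 listed pairs 6 could be tested, with exact permutation of the pairings and Benjamini-Hochberg adjustment over the 6. COL4A1 and COL4A2 varied together, with Pearson r = 0.988 (exact p = 0.000794, adjusted 0.00476) and Spearman rho = 0.964 (exact p = 0.00278, adjusted 0.0167). Without the 2 tumours farthest from the COL4A1 median, deleted tumour 3 among them, r was 0.928, and without wild-type tumour 1 it was 0.987. The sessions held 4 and 3 tumours, under the minimum of 6 set for a correlation, so none is given within a session. An r without 2 tumours is also under that minimum. It is given without a test, only to show how far a pair hung on those tumours.

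COL1A1 and COL1A2, the chains of type I, had r = 0.960 (exact p = 0.0151, adjusted 0.0452) and rho = 0.450 (exact p = 0.318, adjusted 0.556). Without deleted tumour 2 and wild-type tumour 3 r was -0.12, so on the brightest probes the relation rested on those tumours. With the mean of all tested probes of each gene r was 0.935 and rho 0.964. COL6A1 and COL6A3 had r = 0.782 (exact p = 0.0325, adjusted 0.0651) and rho = 0.750 (exact p = 0.0663, adjusted 0.199). Without wild-type tumour 3 and deleted tumour 4 r was 0.474, so on the brightest probes the relation rested in part on those tumours. With the mean of all tested probes of each gene r was 0.862 and rho 0.679. The number of pairs with an adjusted Pearson p below 0.1 was 3, and 1 without wild-type tumour 3.

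The other 3 pairs had an adjusted p above 0.1. COL5A1 and COL5A2 had r = 0.420 (exact p = 0.342, adjusted 0.447) and rho = 0.286. COL1A1 and COL3A1 had r = 0.312 (exact p = 0.447, adjusted 0.447) and rho = 0.286. COL3A1 and COL5A2, which are neighbours on chromosome 36 as COL4A1 and COL4A2 are on chromosome 22, had r = -0.343 (exact p = 0.395, adjusted 0.447) and rho = -0.393.

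**Figure D5:**
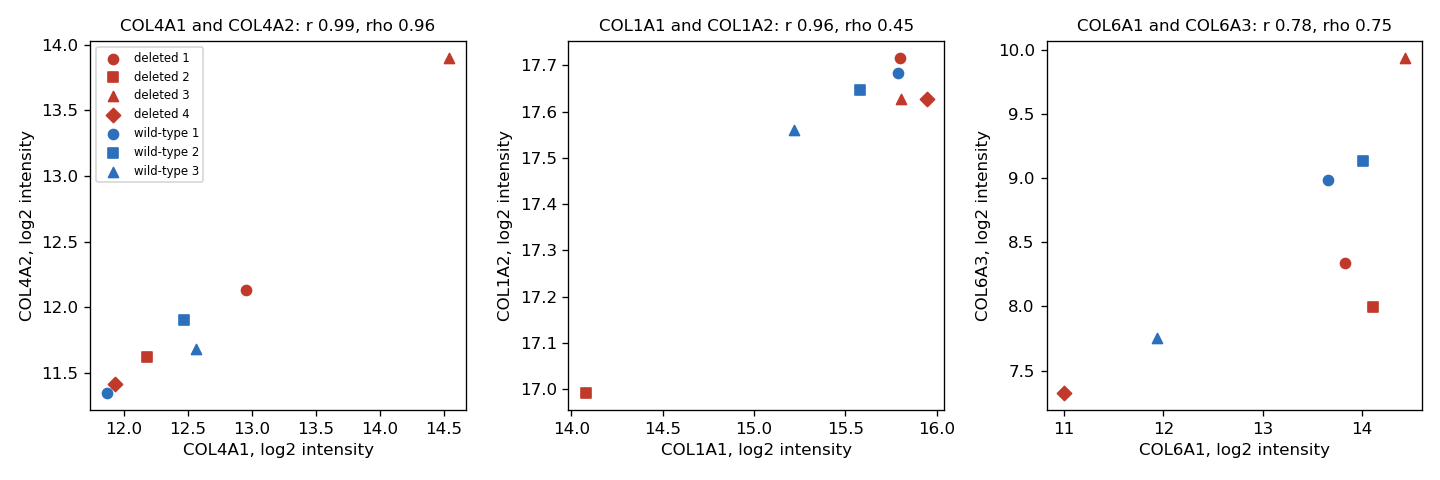
Log2 intensity of 1 chain against its partner in each of the 7 tumours, for COL4A1 and COL4A2, COL1A1 and COL1A2, and COL6A1 and COL6A3 (axes in log2 intensity, red deleted, blue wild-type). The COL4A1 and COL4A2 points follow 1 line also without deleted tumour 3, and deleted tumour 2 lies alone in the COL1A1 and COL1A2 panel.

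Genes that make, export, trim and sense collagen were read from the same fit. Of 47 listed genes 38 were tested, and limma called 0, where it called 0% of all probes. At an unadjusted p below 0.05 there was 1 (2.63%), against 7.34% of all probes. The groups were separate at 0, against 8.15% of all probes. Among the chain-modifying enzymes and chaperones 7 genes were nominally higher and 8 lower, among the export genes 5 and 2, among the propeptide proteases and cross-linking oxidases 6 and 4, and among the receptors 4 and 2. The median difference over the 38 was 0.10, beside 0.015 for all genes. P3H3, a member of the prolyl 3-hydroxylase family, was at 8.31, 9.68, 8.94 and 8.81 in deleted and at 9.24, 10.22 and 10.01 in wild-type tumours. It differed by -0.89 (SE 0.37, limma adjusted p = 0.679). Deleted tumour 2 lay above wild-type tumour 1 here too. CRTAP, a partner in prolyl 3-hydroxylation, differed by 0.52 (SE 0.23, limma adjusted p = 0.704), and it lay at 11.13 to 11.99 in deleted and 10.88 to 11.39 in wild-type tumours. MIA3, which helps load procollagen into transport carriers, differed by -0.47, and SEC24D, a coat protein of those carriers, by 0.41. Without wild-type tumour 3 the MIA3 difference was -0.71 and that of SEC24D 0.039, so the latter rested on that tumour. TLL1, a protease that trims procollagen ends, differed by 0.39, and by 0.14 without deleted tumour 1. P4HB, a subunit of prolyl 4-hydroxylase, differed by -0.23, and by -0.13 without deleted tumour 4.

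Whether the genotype difference depended on the sex label was tested with an interaction term. limma called 0 of 51 collagen probes, as it called 0% of 32231 probes. At an unadjusted p below 0.05 there were 13 collagen probes of 7 genes, against 7.95% of all probes. COL3A1 had the smallest adjusted p, 0.301. Wild-type tumours with the label MC were wild-type tumour 3 alone, so this term and that tumour cannot be told apart.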

How the data were processed

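Total RNA of 7 tumours was hybridised by the authors to Agilent Canine V2 arrays in 1 colour. Agilent Feature Extraction 10.7.3.1 wrote the deposited linear intensity of each spot, that of its surroundings, and a processed intensity. The methods of the authors state RMA normalization with correction for a batch that is not described. Probe coordinates are those of the files, on canFam2. Whether a probe lies in an untranslated region was not analysed here.

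The mean intensity was corrected with the local background by normexp (offset 50), put on the log2 scale and quantile-normalized with limma 3.58.1 in R 4.3.3. On deleted tumour 1, 18 spots carried a mark for a non-uniform local background, which reached 58105 against a median of 21. With the marked values as deposited the background model failed on that array, so each marked background was replaced by its array's median. Control spots and 144 outlier values were left out, and replicate spots were averaged. Probes well above background on at least 3 arrays were tested, 32309 of 43603. Of all probes 20610 had a symbol, 1842 of them through a RefSeq table of UU_Cfam_GSD_1.0.

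Groups were compared with limma (lmFit and eBayes, two-sided), with p-values adjusted over all tested probes and calls at the threshold of the study's methods. The test over splits is exact (all 35), as are the correlations. On simulated arrays limma recovered 48.5%, 80.5% and 95.5% of 200 of 32231 probes changed by 1, 2 and 3 on the log2 scale. It also called 18, 16 and 28 unchanged probes. The changed probes were drawn at random from all probes. Their median range over the tumours was 0.82, against 2.34 for the collagen probes, so these shares cannot be carried over to the collagen probes. Genes were named by these rules: the main tissue chains, in each class the 2 with the smallest p and the 2 with the widest range, genes whose probes disagree, and the 6 pathway genes with the smallest p. Some others, COL21A1 and COL24A1 among them, were named outside these rules after their values were seen. The members and lists were chosen with earlier results of these data known. Alternatives were other background corrections and scalings, filters, the methods' t-test, limma options, blocks, covariates and each tumour left out. Using the background as deposited was added after seeing the data.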

Additional observations from a re-analysis of the deposited data

Results flagged for a closer look

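In 2 of 25 sets of the 4 deleted tumours (22 genes and 3 class levels) 1 tumour lay far from the other 3, where chance gives 1.25. COL1A1 in deleted tumour 2 had a gap to the nearest deleted tumour of 0.920 of the group's whole range. For COL1A2 the same tumour stood off by 0.877 of the range. Both are chains of 1 trimer and both values come from the brightest probe of the gene. The triple-helix probes printed above set deleted tumour 2 less apart. It was at 9.75 beside 11.54, 13.01 and 12.91 for COL1A1, and at 12.80 beside 14.38, 15.47 and 15.47 for COL1A2. The flag was not computed for these probes. The groups of 3 wild-type tumours were not tested in this way.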

How the results depend on the processing

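The count of called collagen probes and that of called pathway genes was 0 under every alternative fitted to tumours of both sessions. The fibrillar and basement membrane medians stayed within 1 SD of the deleted tumours' class levels, though both changed sign under some settings. The median of the other chains moved to -0.58 within feature extraction session 1, and lay between -0.28 and 0.06 with single tumours left out. The number of correlated pairs lay between 1 and 3 with single tumours left out. Of 638 recomputed gene differences, 70 changed sign. COL19A1, COL21A1, COL25A1, P3H3, SEC24D, TLL1 and DLG2 changed sign under no alternative, though SEC24D fell to 0.039 without wild-type tumour 3 and TLL1 to 0.14 without deleted tumour 1 and to 0.00096 with slide as a fixed block. The cause of the sign changes was not tested. With 75th percentile scaling COL1A2 was 0.10, on the processed intensity with that scaling COL1A1 was 0.036, COL1A2 0.21, COL14A1 -0.57 and COL24A1 -0.37, and on the processed intensity with quantile normalization COL14A1 was -0.37 and COL24A1 -0.32. The 75th percentile scaling of the corrected intensity raised the median of all probes by 0.12. With the mean of all probes of a gene COL1A1 was 0.073, COL5A2 -0.030 and COL7A1 0.12. With array weights COL3A1 was -0.0080, COL6A1 -0.0096, COL7A1 0.062, COL12A1 0.064 and COL24A1 -0.11. With slide as a fixed block, which leaves 1 residual degree of freedom, COL3A1 was -0.12, COL12A1 1.13, COL14A1 -0.30 and COL24A1 -0.34, and with slide as a random block COL14A1 was -0.0075 and COL24A1 -0.0042. With the extraction session as a term COL7A1 was 0.47 and COL14A1 -0.026. Within session 1 COL3A1 was -0.61, COL6A1 -0.83, COL12A1 0.50 and COL14A1 -0.52. Within session 2 COL1A1 was 0.29, COL1A2 0.094, COL5A1 -0.060, COL5A2 -0.94, COL7A1 1.43, COL11A1 -0.36, COL13A1 0.41, COL24A1 -0.28, CRTAP -0.066 and P4HB 0.17. With age as a covariate COL4A1 was -0.25, COL4A2 -0.093, COL5A2 -0.039, COL7A1 0.057, COL14A1 -0.073, COL24A1 -0.14, MIA3 0.016 and P4HB 0.047. With single tumours left out COL1A1 ranged from -0.30 to 0.32, COL1A2 from -0.21 to 0.027, COL3A1 from -0.63 to 1.27, COL5A1 from -0.11 to 0.80, COL5A2 from -0.24 to 0.52, COL6A1 from -0.49 to 0.92, COL6A3 from -0.74 to 0.13, COL7A1 from -0.54 to 0.30, COL12A1 from -0.54 to 0.19, COL13A1 from -1.08 to 0.32, COL14A1 from -0.21 to 0.32, COL15A1 from -0.027 to 0.92 and COL24A1 from -0.41 to 0.26. No paired analysis was possible because tumour numbers pair nothing in the labels. The precision is set by 4 and 3 arrays.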
